A study of Mus musculus with 4 samples.

Results

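Immediate early genes were followed in cardiac cushions, the swellings that form the heart valves, of mouse embryos. The members were 10 genes chosen by symbol: Fos, Fosb, Jun, Junb, Jund, Egr1, Egr2, Egr3, Atf3 and Ier2. All 10 had a row among the 23337 gene rows of the count table. The 4 libraries were of strain C57BL/6 at embryonic day 14.5, 2 from wildtype littermates and 2 from mutants of genotype Nfatc1Cre;Brg1F/F. In the mutants, Cre made from the Nfatc1 locus, which is active in the endocardium, deletes floxed Smarca4, which encodes Brg1, the ATPase that drives SWI/SNF chromatin remodellers, so cells outside the Cre lineage keep the gene. Embryos were taken on ice, the tissue was dissected by the GFP of a Cre reporter and frozen at once in Trizol, and the libraries were made from total RNA after removal of ribosomal RNA. The labels describe outflow tract and atrioventricular valves together and do not say how many embryos a library holds. The p-values below thus reflect only how far these 4 libraries vary, and part of that may be technical.

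Immediate early genes are transcribed within minutes of a growth factor, mechanical or stress signal, without need for new protein, and their transcripts are short-lived. Signalling kinases activate factors already on their promoters, among them SRF with its ETS partners at the CArG box and CREB at the cyclic AMP response element. The products of most of these genes are themselves transcription factors. Fos and Jun proteins dimerise as AP-1, Egr proteins bind GC-rich sites through zinc fingers, and Atf3 is a stress-induced factor of the ATF and CREB family. In the heart such genes are known to answer stretch and injury, and they are also known to answer the handling of tissue before it is frozen.

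Gene reads numbered 14104458 to 22426537 per library, and 3 reads corresponded to 0.132 to 0.212 CPM (reads scaled to the library's effective size). All 8 endocardial and endothelial markers and all 8 cushion mesenchyme markers were detected, with summed levels of 1226 to 1321 CPM and 6552 to 7216 CPM. Cardiomyocyte markers (8 of 8 detected) summed to 66080 and 60100 CPM in wildtype libraries 1 and 2 and to 53230 and 56440 CPM in mutant libraries 1 and 2, so heart muscle transcripts were part of every sample. Smarca4, the targeted gene, stood at 251 and 231 CPM in the wildtype libraries and at 282 and 239 CPM in the mutant ones (edgeR adjusted p = 0.979). These counts over the whole gene do not bear out the genotype labels. They cannot decide on the labels either way, because cells outside the Cre lineage keep the gene. Mutant library 2 also stood apart by sex: Xist was at 13.4 CPM there and at 2047 to 2659 CPM in the other libraries. Mutant and wildtype below name the libraries so labelled.

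By gene model the members were compact. In GENCODE M21 (mm10) 9 of the 10 spanned less than 10000 bases, against 22.2% of the 12359 tested genes with a coding model, and the members' median span was 4698 bases against 26110. Exons, untranslated ones included, were counted in the protein-coding transcript with the most of them. Jun, Junb, Jund and Ier2 had 1, Egr1, Egr2 and Egr3 had 3, Fos and Atf3 had 4 and Fosb had 5. The median of tested genes was 9. Atf3, at 47744 bases, was the exception through a distant upstream start; the RefSeq model spans 13038 bases.

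RefSeq promoter windows of GRCm38.p6 were at hand for 7 members (Fos, Fosb, Jun, Junb, Jund, Egr2 and Atf3), in 11 windows because Egr2 has 5 annotated starts. The 250 bases before each start were searched on both strands for 4 motifs. The CArG box, the site of SRF, was found in 4 of the 5 Egr2 windows and in no other member searched. Egr1, Egr3 and Ier2, and sequence further than 250 bases before a start, were not searched. Of all 32851 windows 1.47% held a CArG box, as did 1.21% of the 12449 windows of tested genes. The Egr site GCGNGGGCG was found in Fosb, and 4.7% of all windows and 8.79% of windows of tested genes held one. The cyclic AMP response element TGACGTCA and the AP-1 site TGACTCA were not spelled out in these 7 members' windows. Of all windows 1.55% and 4.46% held them, as did 2.42% and 3.14% of windows of tested genes. At such shares their absence from 11 windows says little. The motifs overlapped nowhere in the members' windows. These are matches of letters and say nothing of binding. They are printed because they are the only matches among the members searched, with the motif in capitals, on the strand of the gene.
Egr2, chr10:67537484-67537513, plus strand: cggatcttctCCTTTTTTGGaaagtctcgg
Egr2, chr10:67537787-67537816, plus strand: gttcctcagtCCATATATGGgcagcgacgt
Fosb, chr7:19310077-19310105, minus strand: tgacgcaagcGCGGGGGCGggtcccggag
The Egr2 stretches are different sites. The first lies 82 to 53 bases before its own annotated start. The second lies 82 to 53, 83 to 54 and 143 to 114 bases before 3 neighbouring annotated starts. The Fosb stretch lies 60 to 32 bases before the start.

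Levels differed widely between members. Per length, as CPM per kilobase of exon (RPKM, mean ± SD over n = 4 libraries), Jund stood at 25.5 ± 3.15, Jun at 18.1 ± 3.52, Atf3 at 7.51 ± 1.36, Egr1 at 2.67 ± 0.358 and Ier2 at 2.34 ± 0.428. Below them came Fos at 1.40 ± 0.318, Junb at 1.11 ± 0.277, Egr2 at 0.964 ± 0.137, Egr3 at 0.151 ± 0.0363 and Fosb at 0.0991 ± 0.0348. The median of tested genes was 7.39 RPKM. Jun and Jund, subunits of AP-1 that many resting tissues contain, thus lay above most genes, Atf3 lay at the middle, and the other 7 lay low, Fos above only 18.4% of tested genes and Fosb above 0.372%. Between the neighbours Jund and Jun, Egr1 and Ier2, Fos and Junb, Junb and Egr2, and Egr3 and Fosb, the library values overlapped; the other steps in the order were larger than the spread of the libraries. The place of Jund depends on its gene model: over the 2878 bases of its RefSeq span it would stand at 14.8, below Jun. An annotated antisense gene, Gm11175, covers 877 of the 1668 exon bases of Jund; it has no row in the table, and with the strand setting of the counting not given in the sources used here, its reads cannot be told apart from those of Jund.

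**Figure D1:**
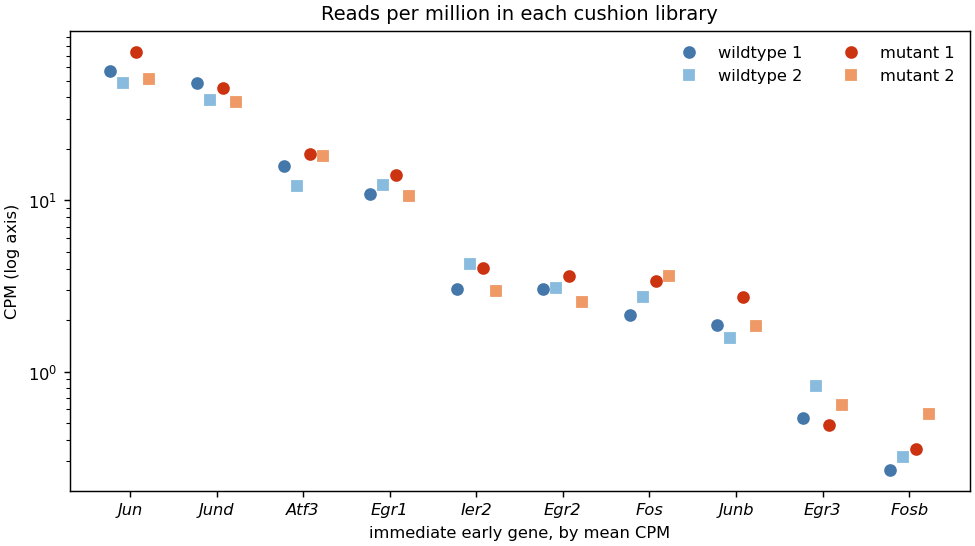
CPM of each immediate early gene (log axis) in each of the 4 libraries, 1 point per library, genes ordered by mean CPM. Jun and Jund lie between 37.9 and 73.6 CPM in every library, while Egr3 and Fosb stay under 1 CPM.

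The comparison of mutant with wildtype cushions asked whether deletion of Brg1 in the endocardial lineage altered these transcripts. No member passed: 0 of the 9 members with enough reads to be tested had an edgeR adjusted p under 0.05, where 0.0629% of all 14316 tested genes did. At an unadjusted p under 0.05 the count was also 0 of 9, where 5.78% of tested genes passed. By adjusted p, 0 members passed by DESeq2 (0.402% of its tested genes), by limma-voom (0.0489%) or by edgeR with a replicate block (0.887%). The smallest adjusted p of a member was 0.891, for Atf3. Fitted log2 fold changes (mutant over wildtype) were positive for 6 and negative for 3 of the 9, with a median of 0.10, beside -0.0027 over all tested genes, of which 49.5% were positive. Without mutant library 1 the members' median was -0.076, and without mutant library 2 it was 0.29. With 2 libraries against 2, an exact permutation test of a single gene cannot give a p below 0.333.

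The Fos genes had the largest ratios of mutant to wildtype means among the members. Fos (chromosome 12, 85473890 to 85477273), the partner that makes AP-1 with Jun, had 40 and 43 reads in wildtype libraries 1 and 2 and 77 and 51 reads in mutant libraries 1 and 2, or 2.13 and 2.71 CPM against 3.39 and 3.60 CPM. Both mutant libraries lay above both wildtype libraries, and the fold change of the means was 1.44. The log2 fold change was 0.53 ± 0.30 (SE), with a 95% interval from -0.15 to 1.21 and an edgeR adjusted p of 0.941. The interval thus runs from 0.901-fold to 2.32-fold, so neither equal levels nor a rise above 2-fold lies outside it.

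Fosb (chromosome 7, 19302696 to 19310051), a close relative of Fos, had 5 reads in each wildtype library and 8 reads in each mutant library, 0.266 and 0.316 CPM against 0.352 and 0.565 CPM. It did not pass the filter on low counts. Fitted without that filter its log2 fold change was 0.60 ± 0.88, and no difference was detectable at this depth.

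The Jun genes encode the partners that can form AP-1 with Fos proteins or with each other. Jun (chromosome 4, 95049034 to 95052222), the most abundant member in CPM, measured 57.0 and 48.3 CPM in the wildtype libraries, against 73.6 and 51.6 CPM in mutant libraries 1 and 2. Mutant library 1 was above the other 3, and mutant library 2 lay between the wildtype libraries. The log2 fold change was 0.25 ± 0.19, with an interval from -0.17 to 0.67 (adjusted p = 0.962). Junb (chromosome 8, 84974484 to 84978718), often described as a weaker activator than Jun, had the same order of libraries at a far lower level: 1.86 and 1.58 CPM in the wildtype libraries, against 2.73 and 1.84 CPM in mutant. Its log2 fold change was 0.42 ± 0.36 (adjusted p = 0.968). Jund (chromosome 8, 70698949 to 70700616), the Jun gene least dependent on stimulation, measured 48.5 and 38.5 CPM in the wildtype libraries, against 45.6 and 37.9 CPM in mutant. Here the libraries numbered 1 were above those numbered 2 in both genotypes, and the genotypes overlapped. Its log2 fold change was -0.06 ± 0.18, with an interval from -0.45 to 0.34, the narrowest of the 9 (adjusted p = 0.990).

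**Figure D2:**
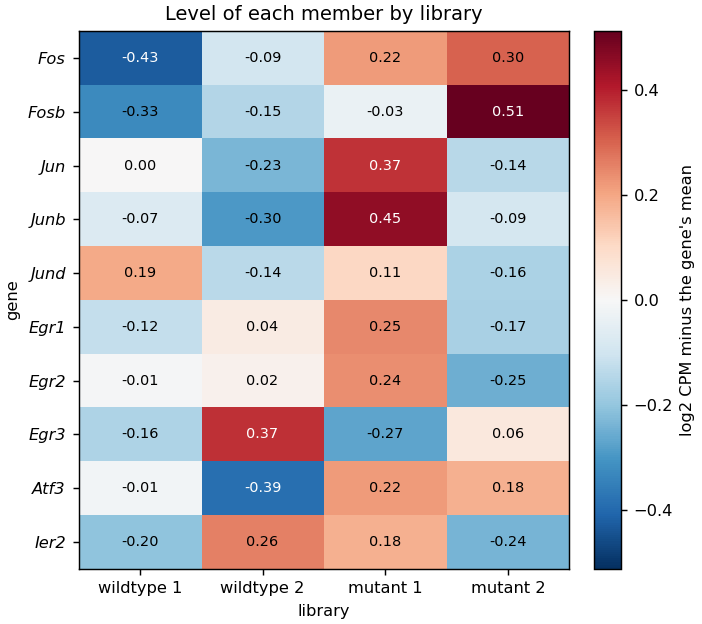
Log2 CPM of each member in each library minus that member's mean over the 4 libraries, with the value printed in each cell. Mutant library 1 is above the mean for 8 of the 10 genes, and Fos, Fosb, Junb and Atf3 are below it in both wildtype libraries.

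Atf3, a repressor and activator induced by many stresses, had the smallest p of the members. It measured 15.8 and 12.2 CPM in the wildtype libraries, against 18.6 and 18.2 CPM in mutant libraries 1 and 2 (297, 193, 422 and 257 reads). Both mutant libraries were above both wildtype libraries, and they lay closer to each other than the wildtype libraries did. The fold change of the means was 1.31, from 14.0 ± 2.57 to 18.4 ± 0.299 CPM (SD, n = 2 libraries each). The log2 fold change was 0.39 ± 0.19, with an interval from -0.04 to 0.81, an unadjusted p of 0.0681 and an adjusted p of 0.891, by edgeR. In the authors' deposited table its log2 fold change was 0.40 with an adjusted p of 0.9999; that table has rows for 4 members, the others being Jun at 0.24, Egr1 at 0.10 and Jund at -0.05.

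The Egr genes encode zinc finger factors induced by growth factors and, in endothelium, by flow. Egr1 (chromosome 18, 34859823 to 34864984), which acts early in growth factor responses, measured 10.9 and 12.2 CPM in the wildtype libraries, against 14.1 and 10.6 CPM in mutant libraries 1 and 2. The mutant libraries were thus the highest and the lowest of the 4. Its log2 fold change was 0.10 ± 0.21, with an interval from -0.36 to 0.57 (adjusted p = 0.985). Egr2 (chromosome 10, 67535475 to 67542188), known as Krox20 for its part in hindbrain and Schwann cells, measured 3.04 and 3.09 CPM in the wildtype libraries, against 3.61 and 2.54 CPM in mutant, and again the mutant libraries enclosed the wildtype ones. Its log2 fold change was 0.02 ± 0.31. Egr3 (chromosome 14, 70077203 to 70082614), known for its part in muscle spindles and lymphocytes, had 10 and 13 reads in wildtype and 11 and 9 reads in mutant. At that depth its interval, from -1.48 to 0.91 on the log2 scale, left a wide range.

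Ier2, a short single-exon gene whose nuclear protein is induced by growth factors (chromosome 8, 84661331 to 84662852), measured 3.04 and 4.23 CPM in the wildtype libraries, against 4.01 and 2.97 CPM in mutant libraries 1 and 2. Wildtype library 2 and mutant library 1 were high and the other pair low, so the genotypes overlapped fully. Its log2 fold change was -0.04 ± 0.31 (adjusted p = 0.995).

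**Figure D3:**
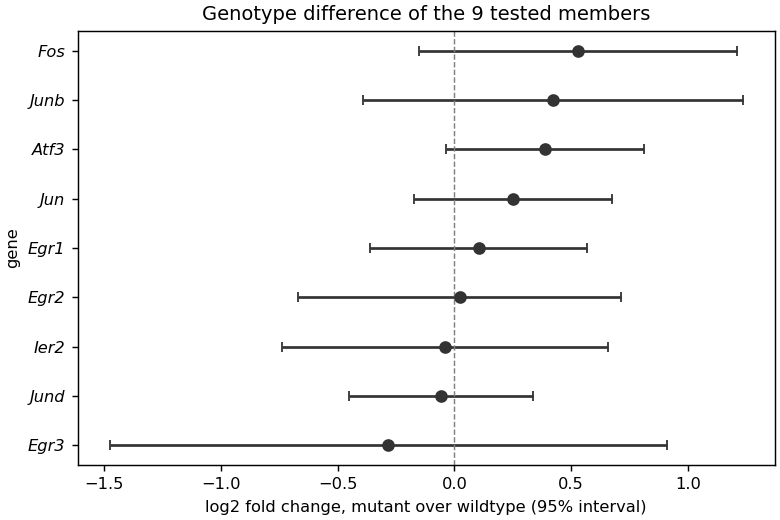
Fitted log2 fold change of mutant over wildtype for the 9 tested members (points) with its 95% interval (bars) from edgeR's quasi-likelihood fit. Every interval holds 0, and Egr3, with 9 to 13 reads per library, has the widest.

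Across members, the groups did not overlap for 3 of 10 (Fos, Fosb and Atf3), all with the mutant higher, and 0 of 10 had the mutant lower. Over all tested genes the mutant libraries were both above in 17% and both below in 16.3%. In 5 members the mutant library was above the wildtype library of the same number in both pairs (Fos, Fosb, Jun, Junb and Atf3), which 24.3% of tested genes showed. In 2 (Jund and Egr3) it was below in both, as in 24.1% of tested genes. In 3 (Egr1, Egr2 and Ier2) it was above in pair 1 and below in pair 2, a pattern of 25.5% of tested genes.

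In pair 1, 8 of 10 members were higher in the mutant library (49.7% of tested genes), with a median ratio of 1.29. For 4 of them, Fos, Jun, Egr1 and Atf3, the 95% interval from counting error alone lay above 1, as it did for 26.9% of tested genes. In pair 2, 5 of 10 were higher (50.5% of tested genes), with a median ratio of 1.02. Only Atf3 had its interval above 1 there, at 1.49 with an interval from 1.23 to 1.81, and 17% of tested genes did. For Jun the ratio was 1.29 (1.20 to 1.40) in pair 1 and 1.07 (0.962 to 1.18) in pair 2. For Egr1 it was 1.29 (1.08 to 1.55) and 0.865 (0.695 to 1.08). Libraries of the same genotype also differed beyond counting error. The ratio of mutant library 1 to mutant library 2 was 1.43 (1.31 to 1.56) for Jun and 1.33 (1.09 to 1.63) for Egr1. For Jund it was 1.206 (1.085 to 1.341). That of wildtype library 1 to wildtype library 2 was 1.30 (1.08 to 1.56) for Atf3 and 1.26 (1.13 to 1.40) for Jund. For Jun it was 1.179 (1.073 to 1.295). The share of all tested genes that differed so within a genotype was not computed. For Jun, Jund and Egr1 a difference within a genotype was thus larger than either pair's difference, and for Atf3 it lay between the pair ratios of 1.17 and 1.49.

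**Figure D4:**
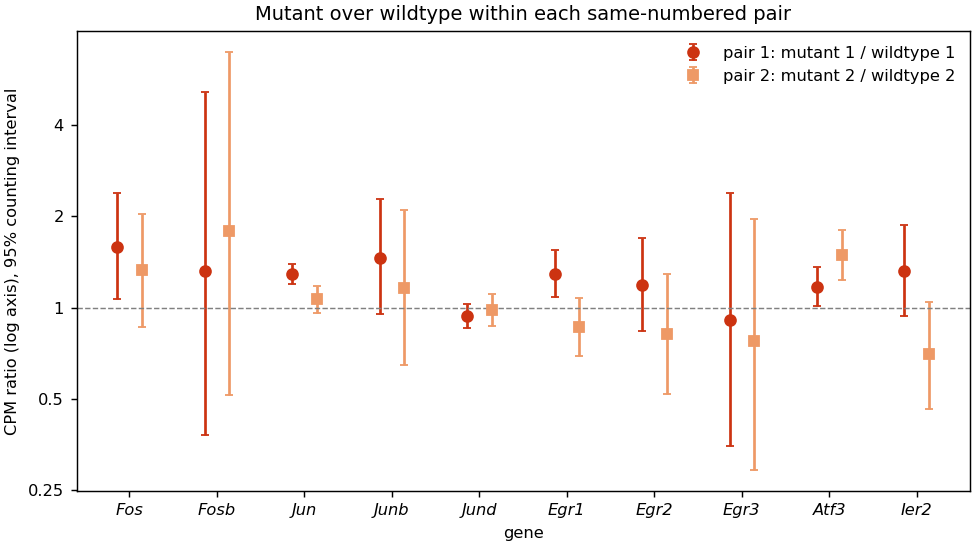
Ratio of CPM in the mutant library to CPM in the wildtype library of the same replicate number (log axis) for each member, with 95% exact intervals that cover counting error only. In pair 1 the intervals of Fos, Jun, Egr1 and Atf3 lie above 1, and in pair 2 only that of Atf3 does.

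Mutant library 1 held the highest value for 5 of the 10 members (Jun, Junb, Egr1, Egr2 and Atf3), where 29.6% of tested genes had it as the highest library. The members summed to 167 CPM there, against 143 and 124 CPM in wildtype libraries 1 and 2 and 130 CPM in mutant library 2. In the same library erythroid markers (7 of 7 detected) summed to 1004 CPM against 751 to 823 CPM elsewhere, and cardiomyocyte markers were at their lowest. Leukocyte markers (9 of 9 detected) were higher in both mutant libraries, at 270 and 303 CPM against 172 and 178 CPM. Ptprc (edgeR adjusted p = 0.01185) and, narrowly, Ctss (0.04985) passed the threshold, where 0.0629% of tested genes did. Hepatocyte markers, at a low level, summed to 8.98 and 16.8 CPM in mutant libraries 1 and 2, against 4.85 and 4.73 CPM in wildtype. Of the 3 hepatocyte markers tested, 2 had a positive and 1 a negative log2 fold change. The part of these cell types in the members' levels was not tested. In bulk tissue, fewer cells of a type and less RNA per cell cannot be told apart.

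Other genes of the same response were higher in the mutant more often than lower, and none passed. Of 34 further immediate early genes, chosen with earlier results of these data known, 32 could be tested. Of these, 0 passed by edgeR, DESeq2, limma-voom or the replicate block. The log2 fold change was positive for 25 and negative for 7, where 49.5% of tested genes were positive. The median was 0.21, beside -0.0027 over all tested genes. Pair 1 had a median of 0.29 and pair 2 one of 0.15. The summed level of all 34 did not separate the genotypes. It was 861 and 818 CPM in wildtype libraries 1 and 2, against 903 and 812 CPM in mutant libraries 1 and 2. Mutant library 1 was the highest library for 18 of the 32, and for 29.6% of tested genes. Without mutant library 1 the median was 0.10, with 20 of 31 positive, and without mutant library 2 it was 0.35. The most abundant of them had small log2 fold changes, none past the threshold: Klf6, a Krüppel-like factor, at -0.01 ± 0.13, Zfp36l1, which promotes decay of AU-rich mRNAs, at -0.07 ± 0.12, and Rhob, a small GTPase, at -0.14 ± 0.18. Klf10, a TGF-beta-induced factor, was at -0.22 ± 0.16, Sik1, a salt-inducible kinase, at 0.06 ± 0.15, and Ctgf, a matricellular target of YAP, at 0.01 ± 0.30. Ctgf ran from 24.3 CPM in mutant library 2 to 52.5 CPM in mutant library 1, with the wildtype libraries at 36.5 and 40.0 CPM between them.

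The 3 of 32 at an unadjusted p under 0.05 by edgeR (5.78% of tested genes), picked after their values were seen, all had both mutant libraries above both wildtype libraries. Klf4, a Krüppel-like factor of endothelium that flow induces, measured 11.8 and 13.7 CPM in the wildtype libraries, against 20.6 and 17.2 CPM in mutant libraries 1 and 2 (log2 fold change 0.58 ± 0.19, adjusted p = 0.575). Myc, the growth regulator, measured 4.69 and 6.63 CPM and 9.07 and 8.47 CPM (adjusted p = 0.748). Csrnp1 measured 4.69 and 4.04 CPM and 7.13 and 5.86 CPM (adjusted p = 0.835). Without mutant library 2, where 443 of 14751 tested genes (3%) passed against 9 of 14316 with all 4 libraries, Klf4 passed (edgeR adjusted p = 0.0473), and so did Cyr61, a matricellular target of YAP (0.0114), which measured 25.2 and 23.5 CPM in wildtype libraries 1 and 2, 39.7 CPM in mutant library 1 and 23.9 CPM in mutant library 2.

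Genes that switch the response on or damp it were higher in the mutant about as often as lower. Of 28 upstream kinases and factors, AP-1 and Egr partners and feedback inhibitors, 27 could be tested, 14 with a positive and 13 with a negative log2 fold change, a median of 0.02 and 0 past the threshold. Creb1, the factor of the cyclic AMP response element, was at -0.12 ± 0.13, and Map2k4, an activator of stress kinases, at -0.16 ± 0.12. Atf4, the factor of the integrated stress response, was at 0.05 ± 0.12, Nab1, a corepressor of Egr proteins, at 0.03 ± 0.12, and Mkl2, a cofactor of SRF, at -0.04 ± 0.13. At an unadjusted p under 0.05 stood 2 of the 27 (5.78% of tested genes), picked after their values were seen: Spry4, a feedback inhibitor of receptor tyrosine kinase signalling, at 0.41 ± 0.16 (edgeR adjusted p = 0.793), and Rps6ka3, the ribosomal S6 kinase RSK2, at 0.34 ± 0.13 (adjusted p = 0.756).

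Heat shock genes, the other set that handling of tissue is known to raise, had a median log2 fold change near 0. All 13 could be tested, 0 passed by edgeR, DESeq2, limma-voom or the replicate block, 7 were positive and 6 negative, and the median was 0.0053 (-0.083 without wildtype library 2 and 0.14 without wildtype library 1). The 6 most abundant were at 0.01 ± 0.17 for Hspa8, a constitutive chaperone, -0.04 for Hsp90ab1, -0.14 for Hsp90aa1, -0.14 for the mitochondrial chaperone Hspd1, -0.13 for Dnaja1 and -0.24 for Hspe1. At an unadjusted p under 0.05 by edgeR stood 4 of the 13, all with the mutant higher and picked after their values were seen, where 5.78% of tested genes had such a p. The inducible genes Hspb1, Dnajb1 and Bag3 of the same list were at 0.17 ± 0.13, -0.04 ± 0.18 and 0.01 ± 0.16. Hspa1b measured 1.17 and 0.884 CPM in the wildtype libraries, against 3.39 and 2.54 CPM in mutant libraries 1 and 2 (log2 fold change 1.53 ± 0.37, edgeR adjusted p = 0.267). Its near-identical neighbour Hspa1a, with which it may share reads, measured 0.533 and 0.820 CPM and 1.50 and 2.68 CPM (1.60 ± 0.48, adjusted p = 0.471). Hsph1, a cochaperone of the same response, was at 0.49 ± 0.18, and Hmox1, haem oxygenase, at 0.60 ± 0.24 (adjusted p = 0.743 and 0.795). Hspa1b passed without the low count filter (adjusted p = 0.0106), where 1.18% of 19935 genes passed, and it and Hsph1 passed without mutant library 2 (0.0214 and 0.00303), where 3% of genes passed.

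Likeness to the pattern of Fos across the 4 libraries was measured as the root mean square difference of log2 CPM profiles, each centred on its mean over the 4 libraries. Among 10971 genes with a mean of at least 5 CPM, Lrrc33 (0.0362), Svep1 (0.0413), Pdgfb (0.0416), Dock8 (0.0496) and Ctdnep1 (0.0581) were nearest, beside a median of 0.32 over these genes. These 5 are the closest of a large search, so their values are not comparable with those of the members, which ranged from 0.173 for Fosb to 0.392 for Jund, with Atf3 at 0.26, Egr1 at 0.287 and Jun at 0.326. Most members were below that 5 CPM minimum. With 4 libraries and 40 to 77 Fos reads in each, such likeness is a description of these libraries.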

How the data were processed

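The authors deposited raw counts per gene symbol for 4 libraries; the submitters' processing notes name mm10 and the tools TopHat2, Bowtie2, HTSeq, SAMtools and edgeR. Tool versions, gene annotation and strandedness are not given in the sources used. Rows outside genes (no feature, 51.8% to 54.4% of tallied reads; not unique, 16.1% to 17.0%; ambiguous, 0.187% to 0.210%) stayed out of library sizes and tests. The authors' deposited table of 11507 rows holds, per the file headers, log2 fold changes, a likelihood ratio score, p-values and a fold change ratio; its sign was turned to mutant over wildtype.

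Counts were fitted over the whole table with edgeR 4.0.16 in R 4.3.3: TMM, filterByExpr (14316 genes kept), the quasi-likelihood F test for genotype and Benjamini-Hochberg adjustment at 0.05. CPM were computed on effective (TMM) library sizes, and log2 CPM with a prior count of 2. Each standard error is the log2 fold change over the root of F. Count ratios of 2 libraries carry exact 95% binomial intervals, which cover counting error only. Alternatives were a replicate block, RLE and upper-quartile scaling, other filters, DESeq2 1.42.0, limma-voom (limma 3.58.1), the 10 most abundant genes left out, and each library left out. The fits were tested on simulated data. Exon lengths are from GENCODE M21 on mm10, matched by symbol, and promoters from RefSeq on GRCm38.p6. Members and lists were chosen with earlier results of these data known.

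All members were named; from each other list the genes past the threshold and, up to 6, the most abundant ones (1 of these is not reported here); for Fos the 5 nearest profiles. The series design describes paired littermates, so the replicate numbers were read as pairs. The labels do not say that a number marks a litter. Across genes the deviations of libraries with one number had a correlation of 0.144, which does not show it either. The unblocked fit is the one reported.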

Additional observations from a re-analysis of the deposited data

How the results depend on the processing

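None of the members passed in the 12 alternative settings: the replicate block (median log2 fold change 0.092), other scalings (RLE, upper quartile), other filters (none, or CPM 5 in 2 libraries, which left 4 members), DESeq2, limma-voom, the 10 most abundant genes left out, and each library left out. The replicate block changed no call among the members or the 3 other lists. With 1 library left out the members' median ranged from -0.0756 (without mutant library 1) to 0.294 (without mutant library 2), beside 0.10 with all 4. Fos, Junb and Atf3 stayed positive wherever they were tested; the lowest adjusted p of a member, 0.105 for Jun by edgeR, came without mutant library 2. With 1 library left out, Jun ranged from -0.033 to 0.49, Egr1 from -0.13 to 0.29 and Egr2 from -0.27 to 0.24, all 3 lowest and negative without mutant library 1. Jund ranged from -0.22 to 0.12, positive without wildtype library 1 and without mutant library 2 (0.074). Egr3 ranged from -0.57 to 0.045, and Ier2 from -0.29 to 0.21, both positive without wildtype library 2, and Ier2 also without mutant library 2 (0.15). Without mutant library 2 the other immediate early genes past the threshold numbered 2 (Cyr61 and Klf4) and 0 without each other library; heat shock genes numbered 2 there, 0 without each other library and 1 with no low count filter. Over all genes the calls numbered 443 without mutant library 2, 180 without mutant library 1, 6 and 3 without wildtype libraries 1 and 2, and 236 with no low count filter, beside 9. The cause was not tested. Where a library was left out, the remaining one of its genotype was taken to vary as the opposite genotype did. Depth limits Fosb and Egr3 most, at 5 to 13 reads per library.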
